A study of Homo sapiens with 2 samples.

Results

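Treatment-naïve SUM159 cells grown as spheroids were compared with treatment-naïve SUM159 cells grown attached to the dish, gene by gene and cell by cell. Cells were taken by a single rule: a cell had to hold at least 1000 unique molecular identifiers (UMIs, each standing for 1 captured transcript). This kept 2442 of 4362 spheroid barcodes and all 5305 attached barcodes, so that 7747 cells of the 30122 barcodes in the series entered the comparison. SUM159 is an established human triple-negative breast cancer line, of wild-type genotype per the labels. The study set 3 populations of this line, untreated, paclitaxel-resistant and doxorubicin-resistant, side by side in both culture forms. Each culture form was 1 sample on 1 BD Rhapsody cartridge, in which sample tags marked the 3 populations, and transcripts of a panel of breast cancer genes were amplified and counted. The naïve cells had received no drug in either form.

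Several features of the design bear on every value that follows. Attached cells grew as monolayers, whereas spheroids were grown embedded in Matrigel, a basement membrane extract. The labels give both samples the same growth text, Ham's medium with serum, insulin and hydrocortisone. The methods of the study describe another serum level for the spheroids and name neither insulin nor hydrocortisone for them. Culture form, medium and cartridge therefore changed together, and their parts in any difference cannot be told apart. The labels do not say which file held which tag, so the naïve populations were recognised by the file names. There was 1 naïve population in each form, without replicates, so no test was possible and no p-value is given. Intervals are exact 95% intervals that cover counting error only and leave out the spread between cultures. Those of CPM and of ratios count each UMI as independent and leave out the spread between cells as well. They are too narrow where few cells hold most UMIs of a gene.

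Cells grown without a flat substrate meet their neighbours and a surrounding matrix on all sides, and gradients of oxygen and nutrients build up towards the centre of a spheroid. In carcinoma lines, such cultures are known for slower cycling and for changes in matrix, adhesion and inflammatory genes. SUM159 cells express vimentin and other mesenchymal genes together with basal keratins, and they lie between epithelial and mesenchymal states. Fibrillar collagens, fibronectin and decorin build the extracellular matrix, platelet-derived growth factor (PDGF) receptors mark mesenchymal cells, and mitotic genes are transcribed in a burst late in the cell cycle.

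The kept naïve cells had nearly the same median depth in both forms, with a wider spread in spheroids. Attached cells held 21423102 UMIs in all, with a median of 3710 UMIs and 135 genes per cell, and spheroid cells held 10796029 UMIs, with medians of 3712 UMIs and 125 genes. The range per cell was 1005 to 15786 UMIs in attached and 1004 to 22711 in spheroid cells, and the means were 4038 and 4421 UMIs. Spheroid cells were more often at both ends: 498 of 2442 had under 2000 and 290 had 8000 or more UMIs, against 511 and 181 of 5305 attached cells. The 1920 spheroid barcodes below 1000 UMIs carried 4.53% of the UMIs of that population. Of the kept barcodes, 13 carried a cell label found in both naïve files, which lay on separate cartridges. The oestrogen receptor gene ESR1 had 14 and 6 UMIs in attached and spheroid cells, and the epithelial adhesion gene EPCAM 31 and 12, so both were near absent.

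Some cells resembled a resistant population more than the naïve one of their own cartridge. When each cell's UMIs were matched to the gene composition of the 3 populations on its cartridge, 515 of 2442 spheroid cells (21.1%, 19.5 to 22.8) were closest to a resistant population, against 275 of 5305 attached cells (5.18%, 4.60 to 5.81). More than 5 UMIs of the efflux pump gene ABCB1, which is abundant in the resistant cells, were present in 76 spheroid cells (3.11%) and 34 attached cells (0.641%). Whether these were cells of another tag or naïve cells of that expression state was not tested. Values without them are given for some genes only, so a gene without such a value may also differ.

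The data held 350 panel genes in the naïve files, of which 262 reached 50 UMIs in either form and are called measured. UMIs were summed over cells and scaled to a total of 1000000 per population (CPM). A gene passed the size rule when its CPM differed at least 2-fold and the higher population had at least 50 UMIs. By this rule 46 of 262 measured genes (17.6%) were higher in spheroids and 61 (23.3%) were lower, so that 40.8% differed in either direction. The higher genes differed more: 26 were at least 4-fold and 16 at least 10-fold higher, whereas only 12 lower genes reached 4-fold and 4 reached 10-fold. Of the 46 higher genes, 21 had over 50% of their spheroid UMIs in 5% of the cells, so their ratios do not describe spheroid cells in general. The median log2 ratio of all measured genes was -0.34, spheroid over attached, and the median of each gene group below should be read beside it. The counts of each group should be read beside the 17.6% and 23.3% of all measured genes. Scaling by the median of ratios, which sets that median to 0, moved the split to 60 higher and 31 lower genes, so that the higher share of the calls went from 43.0% to 65.9%. All 46 higher and 31 of the 61 lower genes passed under both scalings. The medians of the lists for hypoxia, matrix proteases, basal, inflammatory and detoxification genes and long noncoding RNAs lay between this shift and 0 and became positive under that scaling. A gene near 0 in 1 form counted as measured through the other form alone, so it had to differ.

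**Figure D1:**
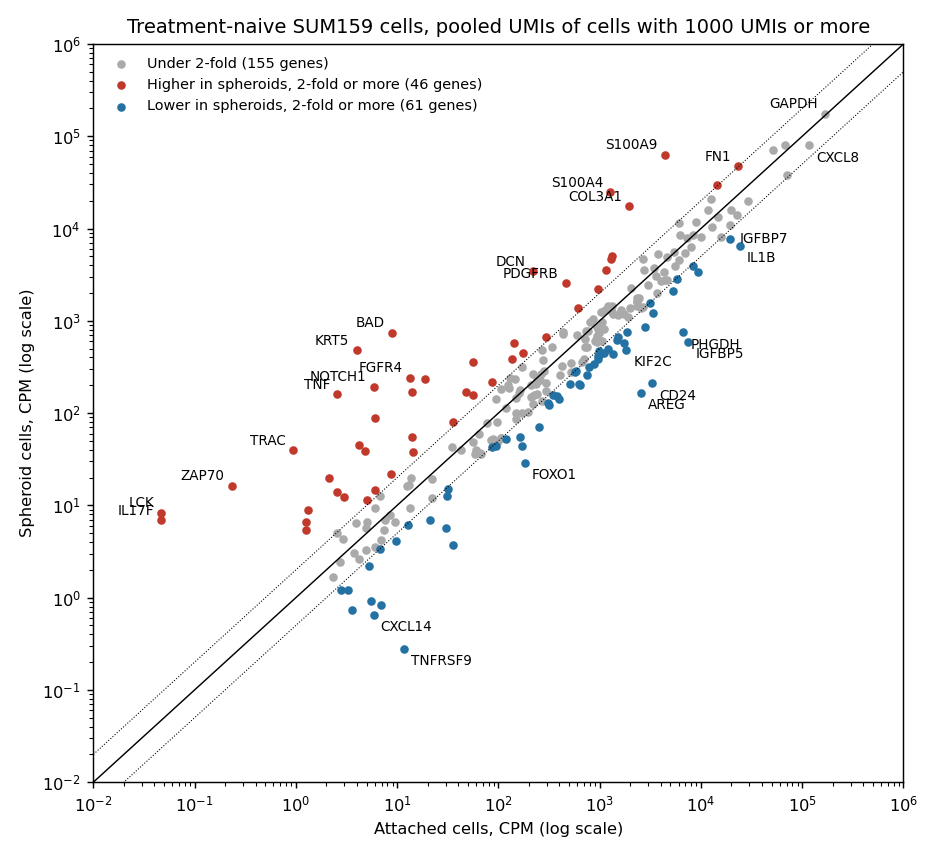
CPM of each of the 262 measured genes in attached (x axis) and spheroid (y axis) naïve cells, both on log scales; the solid line marks equal CPM and the dotted lines 2-fold. The 46 red genes lie above the upper dotted line and the 61 blue genes below the lower one, and the red genes reach further from the line, up to LCK, IL17F and KRT5.

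The mitotic genes formed the largest group on the lower side. All 17 measured genes of G2/M and mitosis had a log2 ratio below 0, and 11 of them passed the rule as lower while none passed as higher, with a list median of -1.07. Under the scaling by the median of ratios 4 of the 17 passed as lower, KIF2C, NDC80, UBE2C and CENPA, and the list median was -0.73. The promoters of 3 of these genes are shown because they hold letters that match the cell cycle homology region (CHR). The CHR is the short element through which many mitotic genes are switched on late in the cycle. Whether these matches act as such an element was not tested. The sequences run from 250 bases before to 50 bases after the RefSeq transcription start on GRCh38.p14, and capitals mark TTTGAA or its reverse complement TTCAAA.

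CDC20 (chr1:43358731-43359030, plus strand): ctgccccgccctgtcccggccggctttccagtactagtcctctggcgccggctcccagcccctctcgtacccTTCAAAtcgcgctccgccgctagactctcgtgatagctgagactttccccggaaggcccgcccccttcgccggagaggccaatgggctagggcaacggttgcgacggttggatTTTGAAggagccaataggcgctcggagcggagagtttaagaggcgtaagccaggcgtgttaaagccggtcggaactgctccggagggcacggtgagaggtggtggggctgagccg
CENPA (chr2:26785806-26786105, plus strand): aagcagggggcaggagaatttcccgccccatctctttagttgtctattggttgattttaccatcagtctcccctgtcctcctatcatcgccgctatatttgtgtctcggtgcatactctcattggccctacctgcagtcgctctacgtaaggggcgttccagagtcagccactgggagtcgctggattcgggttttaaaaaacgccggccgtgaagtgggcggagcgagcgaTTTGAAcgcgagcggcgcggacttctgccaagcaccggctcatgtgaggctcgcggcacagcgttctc
NUF2 (chr1:163321704-163322003, plus strand): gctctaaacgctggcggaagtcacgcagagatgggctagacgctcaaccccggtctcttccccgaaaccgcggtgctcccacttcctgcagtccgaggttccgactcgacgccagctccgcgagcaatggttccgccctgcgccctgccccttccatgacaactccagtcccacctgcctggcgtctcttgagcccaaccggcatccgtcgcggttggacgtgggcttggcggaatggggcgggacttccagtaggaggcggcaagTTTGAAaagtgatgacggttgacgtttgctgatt

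In CDC20 the matches began 178 and 65 bases before the start, in CENPA 18 bases before it, and in NUF2 16 bases after it. Of the 15 G2/M genes with a promoter in the reference, 11 (73.3%) held TTTGAA on either strand, namely CENPA, CENPF, CEP55, CDC20, ANLN, MKI67, NDC80, NUF2, NUSAP1, PRC1 and UBE2T, and UBE2C and BIRC5 had no entry. The motif stood in 1 of 13 promoters of G1/S genes (7.69%), in 39 of 189 measured panel genes (20.6%) and in 4961 of 27305 symbols in the reference (18.2%). A match describes these letters only. KIF2C, which had the lowest ratio of the list, held no match in this window, and ANLN and UBE2T, which held one, were the least lowered.

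KIF2C, a kinesin that corrects microtubule attachments, had 1827 CPM in attached and 481 CPM in spheroid cells, 3.80-fold lower (3.69 to 3.91). NDC80, a kinetochore subunit, was at 396 and 143 CPM, and the ubiquitin-conjugating enzyme gene UBE2C stood at 3340 and 1204 CPM. CENPA, the histone of the centromere, was 2.57-fold lower (2.48 to 2.66), CDC20, which activates the anaphase-promoting complex, 2.49-fold lower (2.46 to 2.53) and the kinetochore gene NUF2 2.28-fold lower (2.21 to 2.35). CENPF, CEP55, PTTG1, CCNB1 and BIRC5 passed as lower as well, from 2.01- to 2.40-fold. The remaining 6 members did not reach 2-fold. Among these the septation gene ANLN was at 1731 and 1172 CPM and UBE2T at 1361 and 1184 CPM.

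Mitotic transcripts were also compared cell by cell. With each cell thinned to 1000 UMIs, 1571 of 5305 attached cells (29.6%, 28.4 to 30.9) and 308 of 2442 spheroid cells (12.6%, 11.3 to 14) had 50 or more UMIs of the 17 genes. At 20 or more UMIs the shares were 39.8% and 27.8%. The 90th percentile of a cell's summed G2/M UMIs was 122 in attached and 58 in spheroid cells, while the medians were 8 and 4. Without thinning by cell, the summed CPM of the list was 42425 and 20241.

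Genes of G1/S and DNA replication did not share this shift. Of 15 measured members, 1 was higher and none lower, with a median log2 ratio of 0.03 that changed sign under 5 of 14 alternative settings. CCNE2, a cyclin that drives entry into S phase, was the member that passed, at 35.5 and 80.4 CPM. The replicative helicase subunit MCM6 was at 430.3 and 722 CPM, 1.68-fold higher (1.63 to 1.73), and LIN9 and DCK were lowest, at 1.71- and 1.5-fold lower. After thinning, 4.11% of attached cells (3.59 to 4.68) and 7.37% of spheroid cells (6.37 to 8.48) had 20 or more UMIs of this list. The typical cell went the other way, with medians of 5 and 3 UMIs of the G1/S genes and 10th percentiles of 1 and 0. Of 5 measured G1 cyclins and CDK inhibitors, CCND2 alone passed, at 162 and 55.5 CPM, whereas CCND1 (1.03-fold higher), CDKN1A (1.25-fold lower) and CDKN1C (1.67-fold lower) did not.

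Genes of the extracellular matrix were higher in spheroids. Of 9 measured members 5 passed as higher and 1 as lower, and the list median was 1.01. COL3A1, a fibrillar collagen, had 1965 CPM in attached and 17409 CPM in spheroid cells, 8.86-fold higher (8.77 to 8.96), and at least 1 UMI was found in 40.0% and 92.3% of cells. DCN, the collagen-binding proteoglycan decorin, was 15.8-fold higher (15.4 to 16.3), at 219 and 3468 CPM. Fibronectin, FN1, was near the limit of the rule at 2.02-fold, but its CPM was already high, so that its gain from 23324 to 47020 CPM was among the 6 largest. ESM1, an endothelial cell proteoglycan, and the matricellular gene WISP1 were 3.90- and 2.81-fold higher. ESM1 was 2.19-fold higher once the cells closest to a resistant population or with more than 5 ABCB1 UMIs were left out. COL1A1, the partner collagen often expressed with COL3A1, was 1.74-fold higher and did not pass. IGFBP7 was the member that passed as lower.

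Matrix transcripts were higher in the middle and upper part of the cells, and the low end of their sum hardly differed. In thinned cells the median of the summed matrix UMIs went from 43 to 78, and 71.0% of spheroid cells (69.2 to 72.8) held 50 or more against 41.3% of attached cells (40.0 to 42.6). At 20 or more UMIs the shares were 93.8% of spheroid and 92.9% of attached cells, and the 10th percentiles of the sum were 26 and 22. For FN1 alone the 10th percentile was 5 in attached and 15 in spheroid cells, so its low end was higher as well. For COL3A1 the median was 0 and 5 UMIs, and the 90th percentile 4 and 56. Of the proteases and their inhibitors, 1 of 7 measured members passed, the surface protease gene FAP, at 8.64 and 21.9 CPM. The plasminogen activator PLAU was 1.77-fold lower, under the rule.

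**Figure D2:**
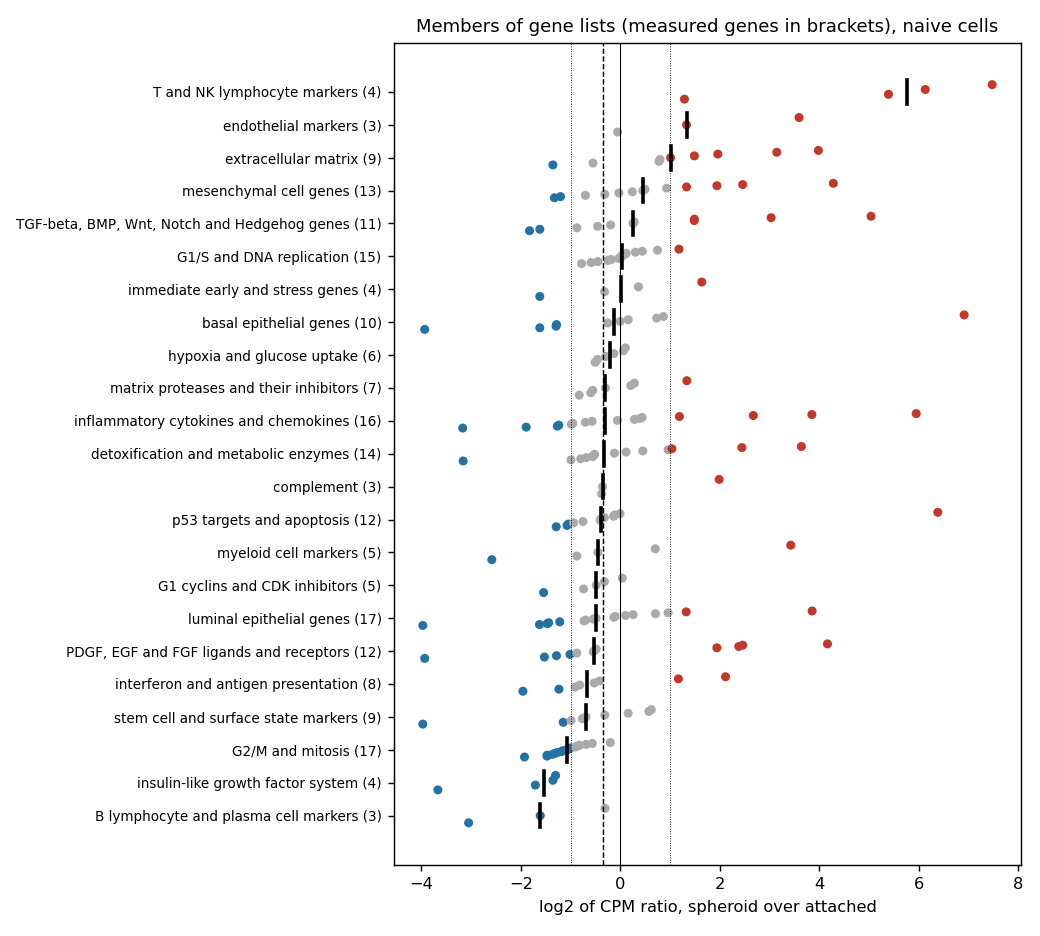
Log2 ratio of CPM, spheroid over attached, for each measured member of the gene lists with 3 or more measured members, 1 row per list; black bars are list medians, the dashed line is the median of all 262 genes (-0.34) and dotted lines mark 2-fold. Red points passed the size rule as higher and blue points as lower. All 17 G2/M points lie left of 0, while extracellular matrix has 5 red points and 1 blue point.

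The mesenchymal genes divided. Of 13 measured members 4 passed as higher and 2 as lower, with a median of 0.45. Under the scaling by the median of ratios 5 passed as higher and none as lower. S100A4, a calcium-binding protein known from motile and fibroblast-like cells, had 1276 and 24877 CPM, 19.5-fold higher (19.3 to 19.7), and its share of cells after thinning was 32.8% and 96.3%. The receptors PDGFRB and PDGFRA were 5.51-fold (5.38 to 5.64) and 3.85-fold (3.79 to 3.90) higher, and endoglin, ENG, 2.52-fold higher. Vimentin, VIM, the intermediate filament of mesenchymal cells, was present in all cells of both forms and was 1.37-fold higher, at 51347 and 70254 CPM. On the other side, smooth muscle actin ACTA2 was at 1110.2 and 443 CPM and the cadherin gene CDH6 at 119 and 51.9 CPM. The list thus held changes of both signs, and its members did not move as 1 block.

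Basal epithelial genes gave 1 higher and 4 lower members of 10 measured, with a median of -0.13 whose sign changed under 2 of 14 settings. The balance of calls depended on the scaling, since the median of ratios gave 3 higher and 2 lower members. KRT5, a keratin of basal epithelium, was 121-fold higher (97.5 to 152), with 85 UMIs in attached and 5175 UMIs in spheroid cells. Its transcripts were concentrated: 10.4% of spheroid cells had any, and 96.7% of the UMIs lay in the top 5% of cells, with 514 in a single cell. KRT14, the partner of KRT5 in filaments, was not higher, at 3611 and 3032 CPM. With each cell thinned to 1000 UMIs, the Spearman correlation of KRT5 with KRT14 was 0.36 over the 2442 spheroid cells. Over the 5305 attached cells it was 0.02, but nearly all of these had no KRT5 UMI, so the 2 values cannot be compared. Both describe these cells only. KRT17 was 1.66-fold higher, under the rule.

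The genes by which the study separates epithelial-like from highly mesenchymal SUM159 cells did not follow a single direction. Among the epithelial markers, TP73 was 3.07-fold lower (2.94 to 3.21), whereas CDH3 was 1.82-fold higher and ITGA6 1.12-fold higher. The mesenchymal markers COL3A1 and PDGFRB passed as higher, and COL1A1 did not pass. Lower basal members besides TP73 were AREG, FOXC1 and EGFR.

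Of 17 measured luminal genes 2 were higher and 5 lower, beside 17.6% and 23.3% of all measured genes, with a median of -0.49. Scaled by the median of ratios, 4 were higher and 4 lower. CD24, a small mucin-like surface protein, was 15.7-fold lower (15.0 to 16.4), from 3281 CPM in attached to 209 CPM in spheroid cells, and 75.4% and 20.8% of cells had a UMI. FOXA1 and XBP1, transcription factors of luminal and secretory cells, were 3.08- and 2.77-fold lower. XBP1 moved across the whole population, with a thinned median of 8 UMIs in attached and 2 UMIs in spheroid cells. MLPH, which links melanosomes and other vesicles to myosin, was 14.5-fold higher (12.1 to 17.6) and the mucin gene MUC1 2.51-fold higher. Of 9 stem cell and surface state markers none was higher and 2 were lower, CD24 and MME, with a median of -0.69. The other members named by the rule, ALDH1A1 (1.99-fold lower), ALCAM (1.49-fold higher) and NCAM1 (1.54-fold higher), stayed under 2-fold, and NCAM1 was 1.71-fold lower without the cells closest to a resistant population or with more than 5 ABCB1 UMIs.

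The inflammatory genes held differences of both signs: 4 of 16 measured members were higher and 4 lower, near the 17.6% and 23.3% of all genes, and the median was -0.31. Scaled by the median of ratios, 4 were higher and 2 lower. S100A9, a subunit of the secreted protein calprotectin, had the largest gain in CPM of any gene, from 4383 to 63354 CPM, 14.5-fold higher (14.4 to 14.6). Its partner S100A8 was 6.39-fold higher (5.98 to 6.82), at 55.5 and 355 CPM. Both genes lie in a cluster on chromosome 1 in GRCh38.p14, S100A9 at chr1:153357854-153361023 and S100A8 at chr1:153390032-153422583, with S100A4 at chr1:153543621-153545806. The chemokine CXCL12 was 2.28-fold higher, and the cytokine TNF 61.9-fold higher (47.3 to 82.5), at 2.57 and 159 CPM. TNF was restricted to a minority, with UMIs in 12.4% of spheroid cells and 86.3% of its UMIs in the top 5% of cells.

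On the lower side stood IL1B, the gene of interleukin 1 beta, at 24049 and 6477 CPM, 3.71-fold lower (3.68 to 3.74). Its thinned median was 14 UMIs per attached and 1 UMI per spheroid cell, and the 90th percentile of spheroid cells, 13, lay below the attached median. CXCL14 was 9-fold lower (4.24 to 22.8) from 125 and 7 UMIs, IL18 2.36-fold lower and CCL3 2.41-fold lower. CXCL8, a neutrophil chemokine, had the largest loss in CPM, from 117868 to 79543, yet at 1.48-fold it did not pass. S100A9 varied widely between spheroid cells, with 0, 13 and 160 thinned UMIs at the 10th, 50th and 90th percentiles, whereas attached cells had 0, 0 and 11.

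**Figure D3:**
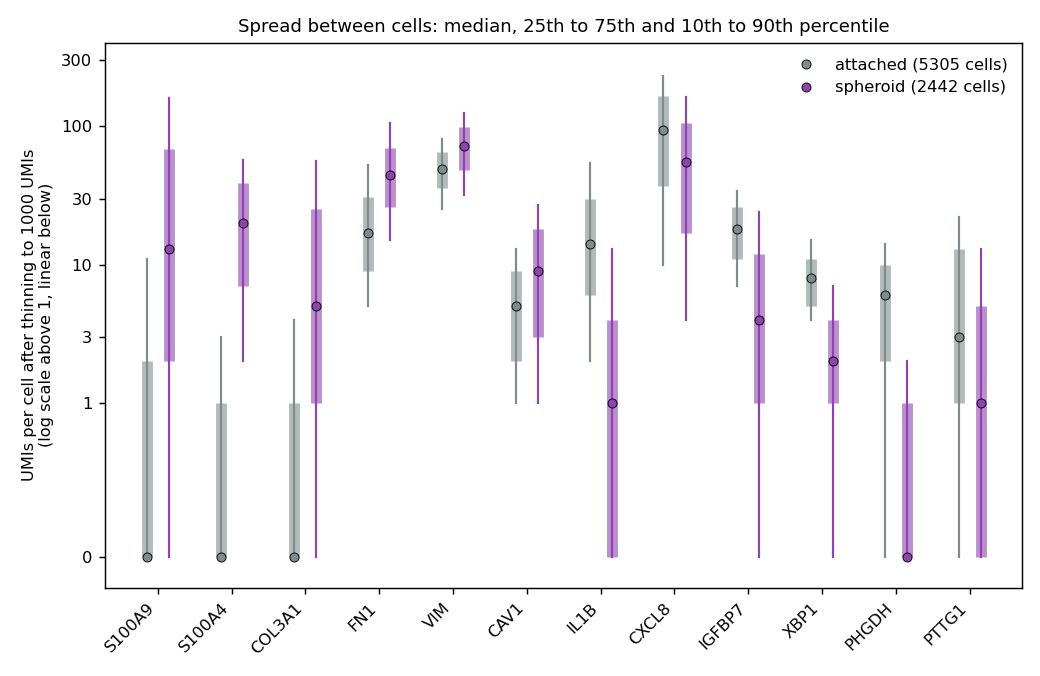
UMIs per cell for 12 genes after each cell was thinned to 1000 UMIs (y axis, logarithmic above 1 and linear below), in 5305 attached and 2442 spheroid cells; points are medians, thick bars the 25th to 75th and thin lines the 10th to 90th percentiles. S100A9, S100A4 and COL3A1 have attached medians of 0 and spheroid medians of 13, 20 and 5, and for IL1B and XBP1 the spheroid bars lie lower than the attached ones.

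The insulin-like growth factor system was lower as a whole list. All 4 measured members passed as lower, with a median of -1.53. With scaling by the median of ratios 3 of them passed, and IGF1R was 1.95-fold lower. IGFBP5, a secreted binding protein, was 12.7-fold lower (12.4 to 13.0), at 7458 and 587 CPM. IGFBP3 and IGFBP7 were 3.27- and 2.56-fold lower, and the receptor gene IGF1R 2.46-fold lower (2.38 to 2.56), at 784 and 318 CPM. IGFBP7 was lower in most cells, since its thinned median was 18 UMIs in attached and 4 UMIs in spheroid cells. IGF1 itself had no UMI in either population.

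Among the PDGF, EGF and FGF families, both directions held receptors and ligands. Among 12 measured members, 4 passed as higher and 4 as lower, and the median was -0.53. The higher genes were the receptors FGFR4 (18.0-fold, 15.9 to 20.4), PDGFRB and PDGFRA and the ligand FGF18 (5.22-fold, from 27 and 71 UMIs). The lower genes were the EGF receptor ligand AREG (15.3-fold, 14.6 to 16, at 2543 and 166 CPM), the PDGF receptor ligand PDGFA (2.88-fold), EGFR (2.43-fold) and EGF (2.02-fold). The PDGF ligand PDGFB and the EGF family members NRG1, ERBB2 and ERBB3 were measured and did not reach 2-fold. Under the scaling by the median of ratios 4 members passed as higher and 2 as lower. EGFR was then 1.93-fold and EGF 1.59-fold lower, under the rule. No pattern of receptors and ligands is read from these calls.

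The TGF-beta, BMP, Wnt, Notch and Hedgehog list gave 4 higher and 2 lower genes among 11 measured, with a median of 0.26. NOTCH1, a receptor for ligands on neighbouring cells, was 33.0-fold higher (27.5 to 39.8), with UMIs in 2.26% of attached and 44.3% of spheroid cells. TGFB1 was 8.19-fold higher (6.58 to 10.3) and TGFB3 2.80-fold higher. GLI1, a target and effector of Hedgehog signalling, was 3.54-fold lower, at 251 and 71.0 CPM, and ID1, a target of BMP signalling, 3.07-fold lower, at 1349 and 439 CPM.

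Hypoxia and glucose genes did not pass. None of 6 measured members did, with a median of -0.21: SLC2A3 was 1.42-fold and EGLN1 1.37-fold lower, and GAPDH and CA12 were 1.04- and 1.08-fold higher. The files held 6 of the 11 genes listed for this response. The core of the hypoxia element, ACGTG or GCGTG on either strand, stood in 4 of 4 listed promoters with an entry. It also stood in 52.4% of all symbols in the reference, in 65.1% of measured panel genes and in 86.7% of the G2/M genes with an entry. Complement gave 1 of 3, C4A, 3.97-fold higher (3.80 to 4.15); C4A and its near-identical copy C4B may share UMIs, so this value is uncertain. C1S and CD46 were 1.30- and 1.28-fold lower.

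Of 8 measured genes of interferon response and antigen presentation 2 were higher and 2 lower, with a median of -0.67. Over all measured genes 17.6% were higher and 23.3% lower. CIITA, which switches on class II genes, was 4.34-fold higher from 27 and 59 UMIs. CD274, the checkpoint ligand PD-L1, was 3.89-fold lower (3.53 to 4.28). HLA-DRB1 was 2.35-fold lower from 112 and 24 UMIs and may share UMIs with its close paralogs.

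Among p53 targets and apoptosis genes, 1 of 12 was higher and 3 lower, with a median of -0.40. These counts stand beside 17.6% and 23.3% of all measured genes. Scaling by the median of ratios left 1 higher and no lower member. BAD, a protein that binds and blocks survival factors of the BCL2 family, was 83.6-fold higher (72.4 to 97.1). It had 190 UMIs in 3.52% of attached cells and 8009 UMIs in 84.6% of spheroid cells, so most spheroid cells held the transcript. BBC3, CASP5 and BCL2 were 2.44-, 2.10- and 2.07-fold lower, and SFN was equal at 265 and 264 CPM. Of 4 immediate early and stress genes JUN was 3.12-fold higher and ID1 lower, while MYC and RHOB stayed within 1.29-fold, and the median was 0.02.

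Of 14 detoxification and metabolic genes 3 were higher and 1 lower, beside 17.6% and 23.3% of all measured genes, with a median of -0.32. PHGDH, the first enzyme of serine synthesis, was 8.94-fold lower (8.74 to 9.14), at 6703 and 749.9 CPM, with thinned medians of 6 and 0 UMIs. AKR1C1, an aldo-keto reductase of steroid and aldehyde metabolism, was 2.05-fold higher and gained 15263 CPM. LPCAT1, which acylates lysophospholipids, was 12.5-fold higher (11.2 to 13.9), and PTGDS 5.45-fold higher from 55 and 151 UMIs. PTGDS did not keep this direction among cells of 8000 or more UMIs, where it was 4.96-fold lower in spheroids, from 28 and 10 UMIs. The glutathione transferase GSTP1 was 1.46-fold lower. Both measured efflux pump genes were under the rule, ABCG2 at 1.47-fold and ABCB1 at 1.60-fold higher, with a list median of 0.62. Without the cells closest to a resistant population or with more than 5 ABCB1 UMIs, ABCB1 was 2.77-fold lower and the list median was -0.60. This filter takes out cells by their own ABCB1 UMIs, so it lowers ABCB1 by construction, and no direction is read from it. Over all kept cells, 36.7% of attached and 20.6% of spheroid cells had an ABCB1 UMI, against the order of the CPM, so no order is read from either. The long noncoding RNAs NEAT1 and MALAT1 were 1.41-fold lower and 1.16-fold higher, with a list median of -0.14.

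Markers of blood and vessel cells were examined because the panel includes them and a cell line should lack such cells. Of 15 T and NK lymphocyte markers in the files 4 were measured and passed as higher, 3 of them (LCK, ZAP70 and TRAC) measured through the spheroid cells alone, so neither this count nor their median of 5.76 is evidence of a shared direction. LCK, a kinase of T cell signalling, had 1 UMI in attached and 90 UMIs in spheroid cells (179-fold, 31.2 to 7131), ZAP70 5 and 177 UMIs, TRAC, the T cell receptor alpha constant gene, 20 and 424 UMIs, and CD3D 129 and 159 UMIs, in 1.75% and 3.32% of cells. Other T and NK cell markers were at or near 0: CD3E had 3 and 1 UMIs, CD8A 1 and 0, CD4 8 and 4, NKG7 2 and 1, PTPRC 5 and 5, and CD3G none. The summed level of the list was 10.6 CPM in attached and 85.9 CPM in spheroid cells.

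IL17F, a cytokine of lymphocytes, was 147-fold higher (25.6 to 5877), but all 74 of its spheroid UMIs came from 1 cell, and without that cell it had no value. TNFRSF9, an activation receptor, was 42.2-fold lower (14.3 to 206), with 251 UMIs in attached and 3 UMIs in spheroid cells. Of 3 measured B cell genes 2 were lower, CD38 (8.29-fold) and FCRLA (3.05-fold), with CD79A at 1.24-fold lower and a median of -1.61. FCRLA was not a trace in these cells, with UMIs in 82.6% of attached and 44.8% of spheroid cells. Of 5 myeloid markers GPNMB was 10.8-fold higher and FCGR3A 6.00-fold lower from 119 and 10 UMIs, with a median of -0.45, and CD14 and ITGAX stayed under 2-fold. GPNMB had 98.3% of its spheroid UMIs in the top 5% of cells and was 4.68-fold higher without the cells closest to a resistant population or with more than 5 ABCB1 UMIs. Of 3 endothelial markers S1PR1 (12.1-fold) and ENG were higher and VCAM1 was 1.04-fold lower, with a median of 1.33.

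The largest differences on the lower side also included genes outside these groups. KRT81, a hair keratin, was 9.70-fold lower (7.06 to 13.7), the transcription factor FOXO1 6.37-fold lower (5.67 to 7.18), TCF4 5.43-fold lower (4.17 to 7.18) and the ephrin receptor gene EPHA6 4.79-fold lower (2.31 to 11.5), from 76 and 8 UMIs. The largest losses in CPM also included ITGB1, the beta 1 integrin chain, at 22669 and 14033 CPM and 1.62-fold lower. Primers differ between panel genes, so CPM values compare populations and not genes.

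Most calls kept their direction among cells of similar depth. Cells of each form were compared within 4 bands of depth, which started at 1000, 2000, 4000 and 8000 UMIs and held 511, 2505, 2108 and 181 attached cells and 498, 827, 827 and 290 spheroid cells. Of the 46 higher genes 44 were above 1-fold in every band and 30 at least 2-fold, and of the 61 lower genes 58 were under 1-fold in every band and 40 at least 2-fold lower. Size did vary with depth for some genes. IL1B was 8.76-fold lower in the shallowest and 2.52-fold lower in the deepest band, and AKR1C1 was 1.18-fold higher in the shallowest and 2.36-fold higher in the deepest band. After thinning, 45 of the 46 higher genes had the larger share of cells in spheroids, and all 61 lower genes had the smaller share. No population of a cell type that lacks these genes was on the cartridges, so the share of cells that free transcripts alone would give was not measured.

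**Figure D4:**
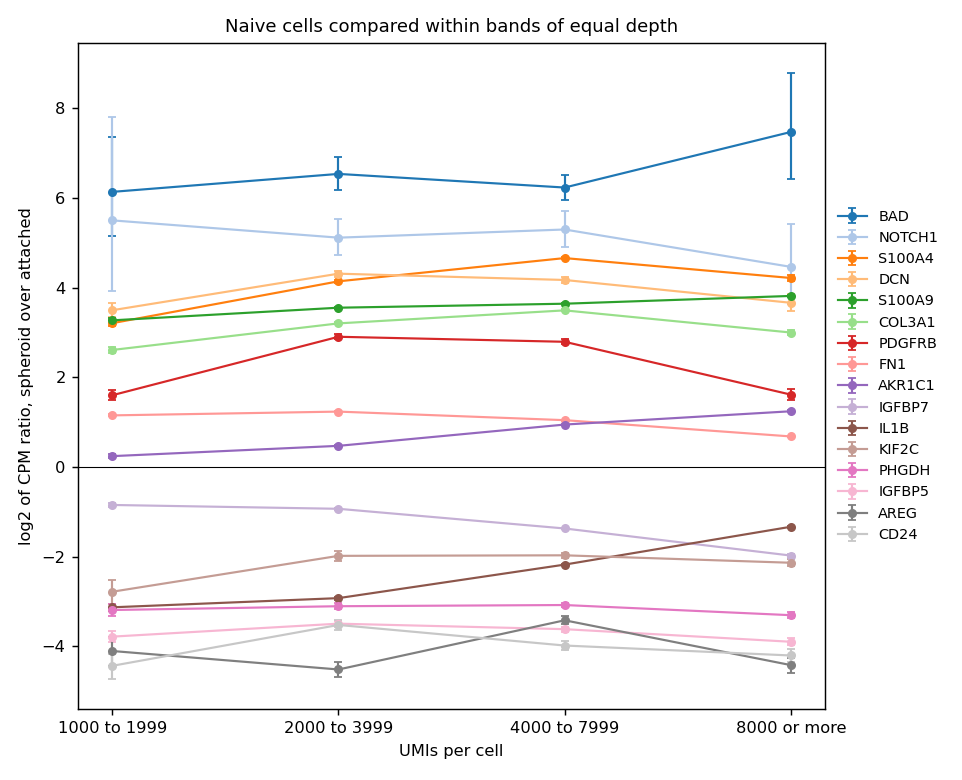
Log2 ratio of CPM, spheroid over attached, of 16 genes within 4 bands of UMIs per cell (x axis); bars are 95% counting intervals and the black line marks equality. Each gene keeps its side of the line in all 4 bands, while IL1B comes nearer to 0 with depth and AKR1C1 and IGFBP7 move away from it.

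The same comparison in the resistant cells used other cells on the same 2 cartridges, so it shares the change of medium and cartridge and is not a replicate. Paclitaxel-resistant cells had 37 higher genes of 255 measured (14.5%) and 65 lower (25.5%), and doxorubicin-resistant cells 48 of 268 (17.9%) and 45 (16.8%). Of the 46 genes higher in naïve spheroids, 26 were among the 37 of paclitaxel-resistant and 32 among the 48 of doxorubicin-resistant spheroids, and 26 were higher in all 3. Of the 61 lower genes, 36 were among the 65 and 24 among the 45, and 19 were lower in all 3. Another 14 higher and 20 lower genes of the naïve cells passed in neither resistant population in that direction.

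Several of the largest differences were of similar size in all 3 populations. For BAD the log2 ratio was 6.39 in naïve, 6.79 in paclitaxel-resistant and 6.65 in doxorubicin-resistant cells, and the share of cells with a UMI was 84.6%, 81.0% and 85.3% in spheroids against 3.52%, 2.49% and 3.41% in attached cells. TRAC (5.39, 5.28 and 4.72) and NOTCH1 (5.04, 5.15 and 5.63) likewise had similar ratios in all 3. S1PR1 was higher in spheroids of all 3 but varied more (3.60, 4.63 and 3.87). S100A9 had the smallest ratio in naïve cells, at a log2 ratio of 3.85 against 6.72 and 8.66, and its attached level was 4383 CPM in naïve and 106 and 56.7 CPM in the resistant cells. The highest spheroid level was the naïve one, 63354 CPM beside 11164 and 22941 CPM.

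Other differences were larger in naïve cells. S100A4 had log2 ratios of 4.29 in naïve, 1.65 in paclitaxel-resistant and 2.04 in doxorubicin-resistant cells, and PDGFRB 2.46, 0.65 and 0.83. JUN was at 1.64, 0.05 and 0.60, and FN1 at 1.01, 0.40 and 0.41. On the lower side IL1B was at -1.89 in naïve cells but at 0.81 and -0.00 in the resistant ones, and AREG at -3.93, 0.46 and -2.28. For AREG the populations differed more in attached than in spheroid cells. In the same order, 54.1%, 25.7% and 31.6% of attached cells and 13.8%, 22.7% and 17.3% of spheroid cells had an AREG UMI. Of the 17 G2/M genes 11 were lower in naïve, 12 in paclitaxel-resistant and 4 in doxorubicin-resistant cells, with medians of -1.07, -1.10 and -0.87. Of the 15 G1/S genes 0 were lower in naïve, 4 in paclitaxel-resistant and 5 in doxorubicin-resistant cells, beside 23.3%, 25.5% and 16.8% of all measured genes. These values stand side by side, and differences between populations were not tested.

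**Figure D5:**
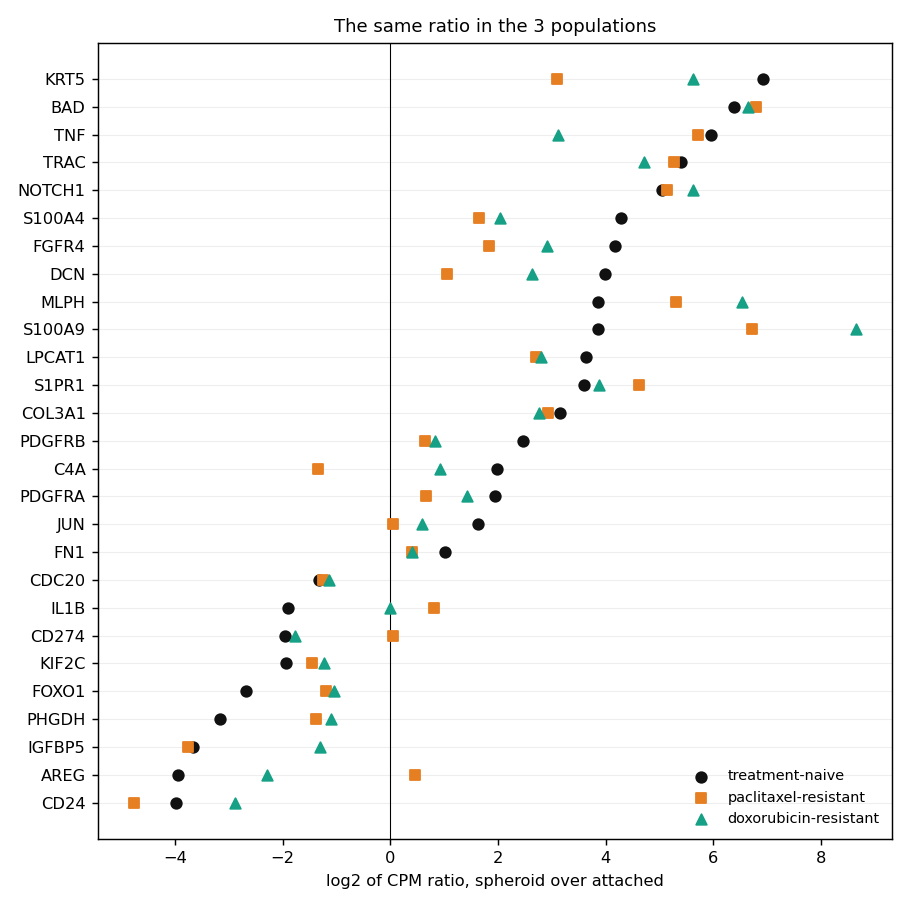
Log2 ratio of CPM, spheroid over attached, for 27 genes in treatment-naïve (circles), paclitaxel-resistant (squares) and doxorubicin-resistant cells (triangles). BAD, TRAC and NOTCH1 have similar ratios in all 3, S100A9 is lowest in naïve cells, and S100A4, PDGFRB and JUN are highest there.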

How the data were processed

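Each population of SUM159 cells came as a matrix of counts, deposited by the authors, holding molecules (UMIs) per panel gene and cell. Per the methods of the study, reads were processed on a hosted platform, and RSEC-adjusted molecules of putative cells formed the matrix. The submitters' processing notes name hg38; the cell filter used before deposit was not given in the sources used here. The files list 373 symbols in all.

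The members and gene lists were chosen with earlier results of these data known. Cells of 1000 or more UMIs were summed per gene and scaled to CPM. Ratios carry exact conditional binomial, shares Clopper-Pearson 95% intervals. The size rule was 2-fold with 50 UMIs in the higher population. Lists are described by counts and medians. Genes were named by largest fold (12 in each direction), largest CPM difference (6 in each direction), the study's state markers, and the extreme members of each list; some are not reported. Cells were thinned to 1000 UMIs with a fixed seed for shares. No doublet caller was run; instead the 2% deepest cells were left out as an alternative. Cells were matched to populations by multinomial likelihood. The ratio script was tested on simulated data. Python 3.11.15, NumPy 2.4.6, SciPy 1.17.1 and pandas 2.3.3 were used. Promoters and coordinates come from RefSeq tables of GRCh38.p14. Gene counts were recomputed under 16 alternatives and ratios under 14.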

Additional observations from a re-analysis of the deposited data

Results flagged for a closer look

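A few genes went in opposite directions in naïve and resistant cells under the same comparison of spheroid with attached cells, each past the size rule on both sides; none of these differences was tested. C4A, a complement gene that may share UMIs with C4B, had a log2 ratio of 1.99 in naïve and -1.35 in paclitaxel-resistant cells. The cyclin gene CCNE2 was at 1.18 in naïve and -1.31 in doxorubicin-resistant cells. These 2 populations differed more in the attached form, where 9.99% of naïve and 33.9% of doxorubicin-resistant cells had a CCNE2 UMI. In spheroids the shares were 12.5% and 16.6%. FCGR3A, an immunoglobulin receptor gene, was at -2.58 in naïve cells, from 119 UMIs in 25 attached and 10 UMIs in 4 spheroid cells, and at 3.74 in doxorubicin-resistant cells, from 35 UMIs in 9 and 162 UMIs in 10 cells.

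The barcodes left out of the comparison also carried signal. In the 1920 naïve spheroid barcodes under 1000 UMIs, ABCB1 stood at 1397 CPM (1297 to 1504), against 234 CPM in the kept spheroid cells and 146 CPM in attached cells, 5.98-fold (5.49 to 6.50) above the kept ones. The 715 UMIs lay in 315 barcodes, with 182 in a single barcode. Of the 1920 barcodes, 739 (38.5%, 36.3 to 40.7) were closest to a resistant population. Their part in the result was not tested.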

How the results depend on the processing

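All 107 genes past the size rule kept their side of 1-fold under each of the 14 alternatives that gave them a value, and 74 stayed at 2-fold or more in all; IL17F had no value without its single positive cell. Scaling by the median of ratios left 31 lower genes and 60 higher ones, and with no minimum of UMIs 86 genes were higher and 87 lower. Of the genes under the rule, ABCB1 ran from 2.77-fold lower to 2.02-fold higher and NCAM1 from 1.71-fold lower to 1.95-fold higher across these alternatives. The lowest ABCB1 value came from the filter that takes out cells by their own ABCB1 UMIs. Among genes past it, several had wide ranges: GPNMB was 4.68- to 13.6-fold, PTGDS was 2.57- to 13.0-fold and LCK 43.4- to 226-fold higher, and FCGR3A was 3.28- to 15.0-fold, CD38 6.56- to 15.9-fold, CXCL14 6.00- to 16.1-fold and HLA-DRB1 1.37- to 3.09-fold lower. Leaving out the cells closest to a resistant population gave 45 higher and 64 lower genes. The largest values of CD38 and CXCL14, 15.9- and 16.1-fold lower, came from this filter. With unthinned cells the difference in the share of cells with a UMI, spheroid minus attached, was reversed for AKT1 at -0.301 and for FN1 at -0.041 percentage points. Leaving out each gene's top cell, and joining both filters on resistant-like cells, were chosen after seeing the data. No paired analysis was possible because each form had 1 naïve population and no test was run. With under 200 UMIs in the higher population, as for 35 measured genes, counting intervals are wide, and the spread between cultures is unknown.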
